A study of Mus musculus with 7 samples.

Results

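The tumour suppressor gene Trp53, which encodes the transcription factor p53, was followed with 9 genes of its pathway in supporting cells of the newborn mouse cochlea. These members were chosen by name: Trp53, the p53 inhibitors Mdm2 and Mdm4, and the target genes Ccng1, Btg2, Sesn1, Trp53inp1, Bax, Bbc3 and Phlda3. They are 10 of the 48709 genes in each table, and all 10 of 10 were among the 14907 genes that passed the filter on low counts and were tested.

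Supporting cells carry and separate the sensory hair cells of the organ of Corti and do not themselves detect sound. The study compared the RNA of these cells after 48 h of exposure to compounds that act on histone-modifying enzymes. Mouse cochleae of postnatal day 1 were kept in a medium with EGF and FGF in every group. The groups were TSA (trichostatin A, a histone deacetylase inhibitor) at 200 nM with 2 libraries, GSK-343 (an inhibitor of the methyltransferase EZH2) at 10 µM with 3 libraries, and DMSO, the solvent, with 2 libraries. After digestion with trypsin, GFP-positive cells were sorted. The strain, the reporter that gives GFP and the source of each replicate are not given in the sources used here, so a p-value here speaks only of the spread among these libraries, which may be technical.

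In an unstressed cell p53 protein is kept low by Mdm2, a ubiquitin ligase that marks it for degradation, and by Mdm4, a relative of Mdm2 that binds and masks its activation domain. DNA damage and other stresses release p53, which binds pairs of related decamers in DNA and induces genes that halt the cell cycle, repair damage, limit growth or start apoptosis. Mdm2 is itself a p53 target, which closes a negative feedback loop. Most of this control acts on the protein, which RNA sequencing does not measure. In the cochlea p53 is best known for its part in the death of hair cells exposed to cisplatin.

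Short stretches of sequence upstream of the members' start sites are shown first, because p53 acts on its targets through such sites. The RefSeq promoter windows (build GRCm38.p6, 250 bases before to 50 bases after each start) were searched on both strands for the p53 consensus decamer of 10 bases and for pairs of decamers up to 13 bases apart. A total of 9 of the 10 members had a window, 13 windows in all, and Trp53inp1 had none. Capitals mark the decamers and lower case the bases around them, each read 5′ to 3′ on the gene's strand. Ccng1 lies on the minus strand (chr11:40755447-40755496), with a pair of adjoining decamers and 1 mismatch, 195 to 176 bases upstream of the start:
Ccng1: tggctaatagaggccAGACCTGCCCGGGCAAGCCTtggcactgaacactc
Bax is on the minus strand (chr7:45467075-45467125), and its pair has 1 mismatch and a spacer of 1 base, 212 to 192 bases upstream:
Bax: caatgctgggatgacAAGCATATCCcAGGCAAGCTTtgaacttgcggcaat
Trp53 itself (plus strand, chr11:69580269-69580308) and Mdm2 (minus strand, chr10:117710920-117710959) each had a single decamer without a mismatch, 75 to 66 and 186 to 177 bases upstream:
Trp53: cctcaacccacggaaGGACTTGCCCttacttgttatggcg
Mdm2: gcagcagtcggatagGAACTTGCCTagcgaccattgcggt
Cdkn1a is not a member, and is shown because it is the best-known p53 target (plus strand, chr17:29090891-29090952). Its pair has no mismatch and a spacer of 12 bases, 73 to 42 bases upstream:
Cdkn1a: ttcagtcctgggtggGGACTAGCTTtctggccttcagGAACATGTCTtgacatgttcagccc

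A pair with at most 1 mismatch stood in 2 of the 13 member windows, and in 359 of all 32851 windows (1.09%). A decamer without a mismatch stood in 5 of the 13 (38.5%), against 2745 of all windows (8.36%). A pair without a mismatch was in 0 of the 13 and in 24 of all windows (0.0731%). These matches are a description of the windows, since the members were chosen as known p53 genes, and a match is not a measured binding site.

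The libraries differ in ways that touch each value below. Total expected counts were 2724381 and 2963228 under TSA, 3398893 to 4248336 under GSK-343, and 5974230 and 5124247 under DMSO. In the deposited tables the median gene length exceeded the effective length by 208.21 to 212.69 bases in the 5 treated libraries and by 49 bases in both DMSO libraries, so the DMSO reads were quantified in another layout and each comparison with DMSO is also a comparison of layouts, and the effects cannot be told apart. Mitochondrial genes took 4.31% to 19.1% of the counts in treated libraries and 25.5% and 26.8% in DMSO. All 17 of 17 supporting cell markers were at 1 TPM or more in every library, with summed levels of 9558 and 13010 TPM under TSA, 25160 to 36150 TPM under GSK-343, and 5193 and 7076 TPM under DMSO. The 12 hair cell markers summed to 508 and 2065 TPM under TSA, 328 to 704 TPM under GSK-343, and 77.1 and 112 TPM under DMSO. The 8 neuron markers summed to 377 and 490 TPM under TSA, 33.4 to 60.7 TPM under GSK-343, and 25.1 and 52.9 TPM under DMSO, with 7, 5 and 2 of the 8 at 1 TPM or more in every library of those groups. The part of these in the results was not tested, and in bulk RNA fewer cells of a type and less RNA per cell cannot be told apart.

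Between libraries, levels are given in CPM (counts scaled by library size and a TMM factor), and between genes in TPM (transcript abundance per library, which accounts for length). Fold changes are log2 values ± SE from edgeR's quasi-likelihood test, and adjusted p are Benjamini-Hochberg values over all genes tested, with a threshold of 0.05. A count of 3 corresponded to 0.674 to 0.88 CPM.

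**Figure D1:**
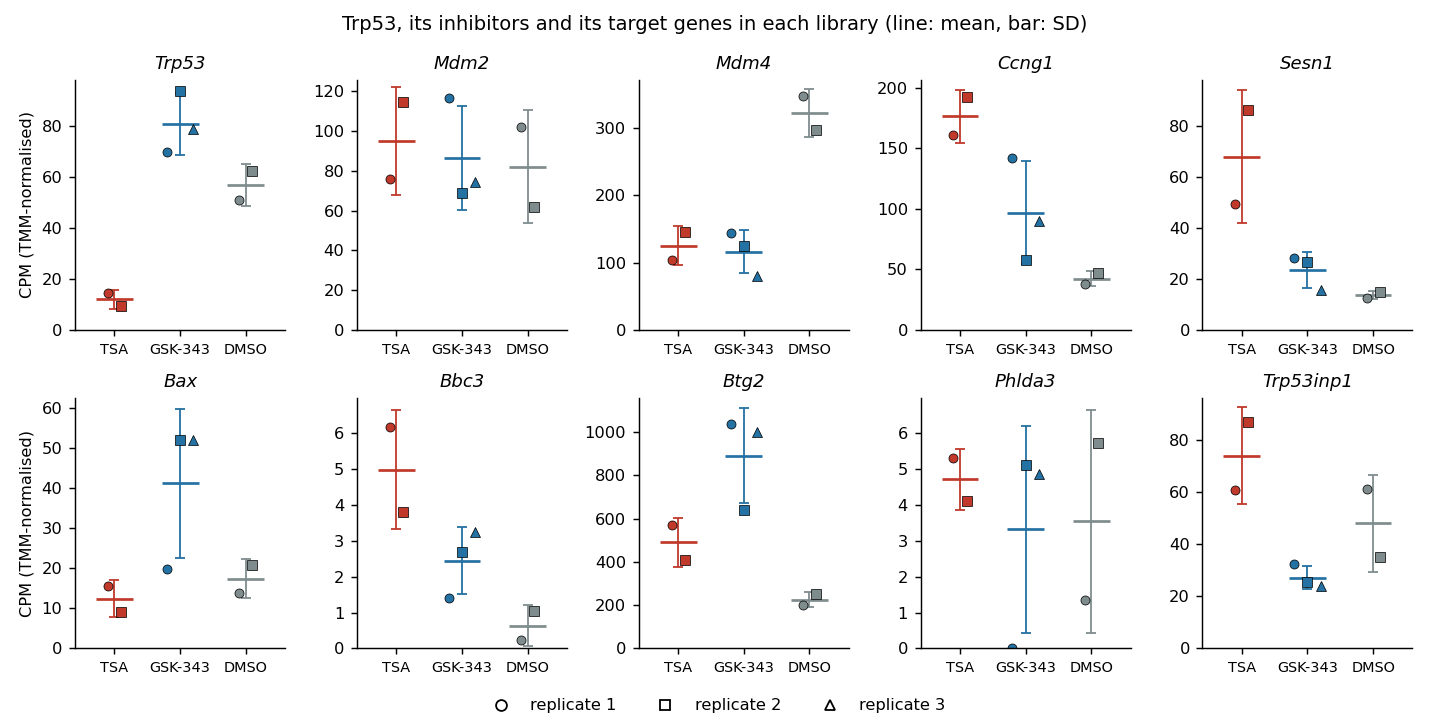
TMM-normalised CPM of the 10 members in each library, with 1 panel per gene and the groups TSA, GSK-343 and DMSO along the x axis. Points are libraries, lines are means and bars are SD. Trp53 stands at 9.39 and 14.6 CPM under TSA, below every other library.

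Trp53 (chr11:69580359-69591873, plus strand; positions here and below are of mm10 with GENCODE M21) had its lowest RNA level under TSA. It was measured at 14.6 and 9.39 CPM under TSA, at 69.7, 94 and 78.9 CPM under GSK-343, and at 51 and 62.6 CPM under DMSO. Both TSA libraries lay below all 5 others, and the GSK-343 libraries lay above both DMSO libraries. The values rest on 52 and 32 counts under TSA, 246, 386 and 341 under GSK-343, and 227 and 240 under DMSO. Means were 12.0 ± 3.66 CPM under TSA (SD, n = 2), 80.8 ± 12.2 CPM under GSK-343 (n = 3) and 56.8 ± 8.19 CPM under DMSO (n = 2). Trp53 fell by 2.75 ± 0.415 on the log2 scale under TSA relative to GSK-343 (adjusted p = 0.00234) and by 2.24 ± 0.427 relative to DMSO (adjusted p = 0.0018). GSK-343 against DMSO gave 0.51 ± 0.366 (adjusted p = 0.284), which did not pass. Trp53 was also ranked by TPM among nuclear protein-coding genes of its own library, which needs no scaling between libraries. It stood at percentile 68.4 and 66.5 under TSA, at 89.9, 93.4 and 91.8 under GSK-343, and at 86.1 and 90.1 under DMSO. Such ranks still carry the layout difference. Genes above 0 numbered 15916 to 19251 in treated libraries, and 25166 and 28754 in DMSO. The fall relative to DMSO was not called by limma on log2(TPM + 1), at -0.79 (adjusted p = 0.072), a scale on which the median of all genes lay at 0.67. Relative to GSK-343 the adjusted p was 0.0798 without TSA replicate 2 over the same genes, and 0.0587 with limma on TPM without a filter.

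Mdm2 (chr10:117688875-117710758, minus strand), the gene for the ubiquitin ligase that limits p53, averaged 95.1 ± 27.2 CPM under TSA (SD, n = 2), 86.5 ± 26.3 CPM under GSK-343 (n = 3) and 82.1 ± 28.4 CPM under DMSO (n = 2). Its levels were 75.9 and 114 CPM under TSA, 117, 68.6 and 74.2 CPM under GSK-343, and 102 and 62 CPM under DMSO. In CPM the 3 groups overlapped, and the differences between their means were smaller than the SD within each. In TPM, both TSA libraries (72.4 and 92.2) lay above both DMSO libraries (48.3 and 24.3), and GSK-343 overlapped both groups. The log2 fold changes were 0.14 ± 0.374 for TSA over GSK-343 (adjusted p = 0.857), 0.21 ± 0.411 for TSA over DMSO (adjusted p = 0.734) and 0.07 ± 0.376 for GSK-343 over DMSO (adjusted p = 0.893). None passed, which does not show that the levels were equal.

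Mdm4 (chr1:132959484-133030561, minus strand), the gene for the other p53 inhibitor, was lower in both treated groups than in DMSO, with means of 125 ± 29.2 CPM under TSA, 117 ± 32.6 CPM under GSK-343 and 323 ± 35.5 CPM under DMSO (SD, n = 2, 3 and 2, as for the means below). It had 104 and 146 CPM under TSA, 144, 125 and 80.5 CPM under GSK-343, and 348 and 298 CPM under DMSO. The treated groups overlapped, and all 5 treated libraries lay below both DMSO libraries. The fold changes relative to DMSO were -1.37 ± 0.367 under TSA (adjusted p = 0.0129) and -1.47 ± 0.325 under GSK-343 (adjusted p = 0.00276), and TSA over GSK-343 gave 0.10 ± 0.33 (adjusted p = 0.883). Mdm4 is also a gene whose estimated transcript mix differed between treated and DMSO libraries, which differ in both compound and layout. Its abundance-weighted transcript length was 5713 and 5686 bases under TSA, 5957.6 to 6989.6 bases under GSK-343, and 3377 and 3681 bases under DMSO. With a correction for GC content and length, the fold changes were -0.82 under TSA (adjusted p = 0.0503) and -0.19 under GSK-343 (adjusted p = 0.617), neither of which passed. With limma on log2(TPM + 1), TSA over DMSO was -0.93 and did not pass (adjusted p = 0.154). Relative to DMSO, the fall under TSA also failed under total count scaling (adjusted p = 0.162), without TSA replicate 1 (adjusted p = 0.122) and without DMSO replicate 1 (adjusted p = 0.0867).

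Set against Trp53 within each library, the inhibitors ranged widely. The ratio of Mdm2 to Trp53 in TPM was 3.30 and 5.95 under TSA, 1.10, 0.490 and 0.546 under GSK-343, and 1.56 and 0.710 under DMSO. Both TSA libraries had the highest ratios, while GSK-343 and DMSO overlapped. The ratio of Mdm4 to Trp53 was 2.16 and 3.59 under TSA, 0.575, 0.372 and 0.228 under GSK-343, and 3.79 and 2.42 under DMSO, so TSA and DMSO overlapped above GSK-343. Mdm4 lay below Mdm2 in all 5 treated libraries, at 0.656 and 0.602 times its TPM under TSA and 0.522, 0.760 and 0.417 times under GSK-343, and exceeded it in DMSO, at 2.44 and 3.40 times. Between any pair of groups, with 2 or 3 libraries in each, a permutation test of these ratios cannot pass. The ratios were not tested, and the Mdm4 levels carry the length difference given above.

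**Figure D2:**
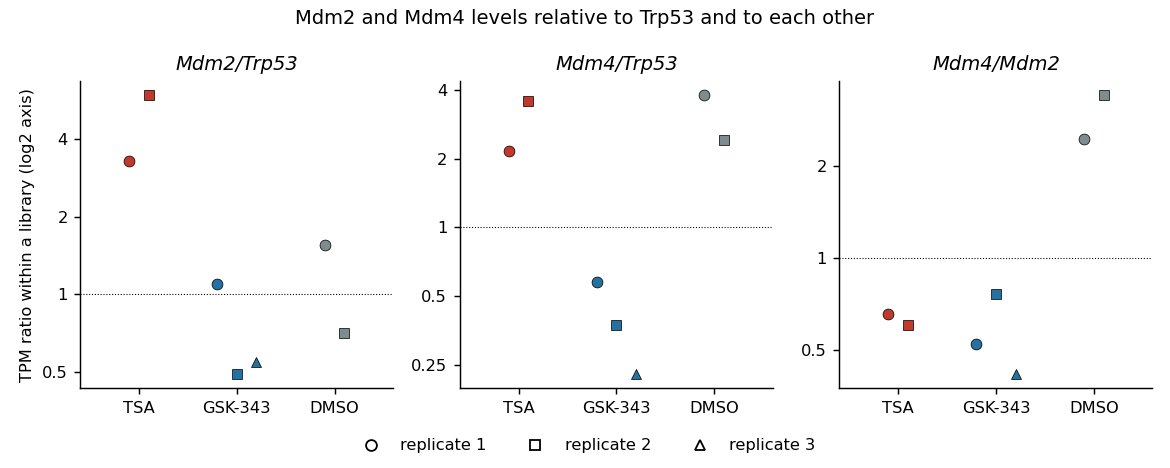
Ratios of TPM within each library for Mdm2 over Trp53, Mdm4 over Trp53 and Mdm4 over Mdm2, on a log2 axis, in the groups TSA, GSK-343 and DMSO. Points are libraries and the dotted line marks a ratio of 1; Mdm2 over Trp53 is 3.30 and 5.95 under TSA, above every other library.

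Ccng1 (chr11:40748552-40755311, minus strand) encodes cyclin G1, a p53-induced protein that binds phosphatase subunits and Mdm2. Its levels were 161 and 192 CPM under TSA, 142, 57.7 and 90.4 CPM under GSK-343, and 38 and 46.9 CPM under DMSO. The groups did not overlap, in the descending order TSA, GSK-343 and DMSO, although GSK-343 replicate 1 came close to the TSA libraries. Means were 176 ± 22.2 CPM under TSA, 96.8 ± 42.6 CPM under GSK-343 and 42.4 ± 6.34 CPM under DMSO. Ccng1 rose by 2.06 ± 0.431 under TSA relative to DMSO (adjusted p = 0.0033) and by 1.19 ± 0.395 under GSK-343 relative to DMSO (adjusted p = 0.0267). TSA over GSK-343 was 0.87 ± 0.372 (adjusted p = 0.143), which passed without GSK-343 replicate 1 (1.25, adjusted p = 0.0251) and was 0.08 with the correction for GC content and length (adjusted p = 0.922). The rise under GSK-343 failed when GSK-343 replicate 1 (adjusted p = 0.0634), DMSO replicate 1 (0.141) or DMSO replicate 2 (0.0711) was left out, and the same correction took it to 2.72.

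Btg2 (chr1:134075170-134079120, minus strand) encodes an antiproliferative protein that binds the CCR4-NOT deadenylase complex. In TPM it ranked below Mdm4 in DMSO replicate 1 and was the highest of the 10 members in every other library. Its levels were 570 and 410 CPM under TSA, 1036, 639 and 999 CPM under GSK-343, and 199 and 249 CPM under DMSO. The 3 groups did not overlap in CPM. In TPM, TSA (563 and 338) overlapped GSK-343 (799, 447 and 648). Means were 490 ± 113 CPM under TSA, 891 ± 219 CPM under GSK-343 and 224 ± 35.2 CPM under DMSO. Btg2 rose by 1.99 ± 0.342 under GSK-343 relative to DMSO (adjusted p = 0.000516) and by 1.13 ± 0.351 under TSA relative to DMSO (adjusted p = 0.0259), and TSA over GSK-343 was -0.86 ± 0.325 (adjusted p = 0.0967). Its annotation holds 1 transcript, so its length is the same in every library. The rise under GSK-343 passed when any 1 library was left out, with fold changes of 1.84 to 2.19. That under TSA failed without TSA replicate 1 (0.129), DMSO replicate 1 (0.16) or DMSO replicate 2 (0.0782), these being adjusted p, and with the GC and length correction (0.65, adjusted p = 0.128).

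Sesn1 (chr10:41809935-41908424, plus strand) encodes sestrin 1, a stress-induced protein that restrains the growth kinase complex mTORC1. It had 49.6 and 86.5 CPM under TSA, 28.3, 26.8 and 15.5 CPM under GSK-343, and 12.6 and 14.9 CPM under DMSO. No groups overlapped, and the lowest GSK-343 library lay close to DMSO. Means were 68.0 ± 26.1 CPM under TSA, 23.5 ± 7.01 CPM under GSK-343 and 13.7 ± 1.61 CPM under DMSO. With TSA, Sesn1 rose by 1.53 ± 0.426 relative to GSK-343 (adjusted p = 0.0339) and by 2.31 ± 0.498 relative to DMSO (adjusted p = 0.00393). GSK-343 over DMSO was 0.78 ± 0.451 (adjusted p = 0.186). Its weighted transcript length varied little, between 2600.0 and 2787.4 bases over the 7 libraries. Relative to GSK-343 the call was lost without TSA replicate 2 (adjusted p = 0.485), without either of GSK-343 replicates 2 (0.0633) and 3 (0.107), and on the TPM scale (0.0562). Relative to DMSO it was lost without TSA replicate 2 (0.0575).

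Trp53inp1 (chr4:11156431-11174379, plus strand) encodes a stress protein that takes part in p53 phosphorylation and in autophagy. Its levels were 60.8 and 87.1 CPM under TSA, 32.3, 25.6 and 23.8 CPM under GSK-343, and 61.1 and 34.9 CPM under DMSO. In CPM, both TSA libraries lay above all 3 GSK-343 libraries, and DMSO overlapped TSA and lay above GSK-343. Means were 73.9 ± 18.6 CPM under TSA, 27.2 ± 4.48 CPM under GSK-343 and 48.0 ± 18.5 CPM under DMSO. Trp53inp1 rose by 1.44 ± 0.386 under TSA relative to GSK-343 (adjusted p = 0.0293). The fold changes were 0.62 ± 0.427 for TSA over DMSO (adjusted p = 0.291) and -0.82 ± 0.387 for GSK-343 over DMSO (adjusted p = 0.105). TSA over DMSO passed with the GC and length correction (1.66, adjusted p = 0.00609) and under total count scaling (1.31, adjusted p = 0.0283). With limma on log2(TPM + 1) it did not (1.18, adjusted p = 0.0829). The rise relative to GSK-343 moved to 0.49 with the GC and length correction (adjusted p = 0.403) and did not pass without TSA replicate 2 (0.335), without either of GSK-343 replicates 2 (0.0765) and 3 (0.0824), or on the TPM scale (0.0689). The same correction turned GSK-343 over DMSO to 1.17 (adjusted p = 0.0207), and here too the weighted transcript length differed, with 5340 and 5371 bases under TSA, 5404.0 to 5432.0 under GSK-343, and 3556 and 3787 under DMSO.

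Bax (chr7:45461697-45466898, minus strand) encodes the protein that forms pores in the outer mitochondrial membrane in apoptosis. It had 15.7 and 9.09 CPM under TSA, 19.8, 52.1 and 52 CPM under GSK-343, and 13.9 and 20.9 CPM under DMSO. GSK-343 replicates 2 and 3 stood apart above every other library, and GSK-343 replicate 1 lay between the DMSO libraries. Means were 12.4 ± 4.66 CPM under TSA, 41.3 ± 18.6 CPM under GSK-343 and 17.4 ± 4.90 CPM under DMSO. No comparison passed: TSA over GSK-343 was -1.74 ± 0.543 (adjusted p = 0.0528), GSK-343 over DMSO 1.25 ± 0.526 (adjusted p = 0.0709) and TSA over DMSO -0.49 ± 0.57 (adjusted p = 0.553). Without GSK-343 replicate 1, the first was -2.07 (adjusted p = 0.0137) and the second 1.59 (adjusted p = 0.0142), and the first also passed with DESeq2 (adjusted p = 0.0381) and with no low-count filter (adjusted p = 0.0225). With the GC and length correction, TSA over GSK-343 was -0.64 (adjusted p = 0.377). Bax shares exons with a same-strand transcript annotated as Gm45808, which had at most 3.14 counts in any library.

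Bbc3 (chr7:16308393-16318205, plus strand) encodes PUMA, a BH3-only activator of Bax and Bak, and was among the lowest members. Its counts were 22 and 13 under TSA, 5, 11 and 14 under GSK-343, and 1 and 4 under DMSO. In CPM these were 6.16 and 3.81 under TSA, 1.42, 2.68 and 3.24 under GSK-343, and 0.225 and 1.04 under DMSO. The groups did not overlap in CPM, in the order TSA, GSK-343 and DMSO, and 1 DMSO library lay under the level of 3 counts. The fitted differences were 2.94 ± 1.218 for TSA over DMSO (adjusted p = 0.0814), 1.93 ± 1.144 for GSK-343 over DMSO (adjusted p = 0.194) and 1.01 ± 0.976 for TSA over GSK-343 (adjusted p = 0.535). None passed at this depth, although TSA over DMSO passed under total count scaling (3.65, adjusted p = 0.0327) and on the TPM scale (2.49, adjusted p = 0.0133).

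Phlda3 (chr1:135766119-135769136, plus strand) encodes a pleckstrin homology protein that competes with the kinase Akt for membrane lipids. It had 5.32 and 4.11 CPM under TSA, 0, 5.11 and 4.86 CPM under GSK-343, and 1.35 and 5.74 CPM under DMSO. GSK-343 replicate 1 had no count where its neighbours had 21 each, and the 3 groups overlapped in CPM. The fold changes of 0.49 ± 1.147 for TSA over GSK-343 (adjusted p = 0.83), 0.42 ± 1.268 for TSA over DMSO (adjusted p = 0.833) and -0.07 ± 1.163 for GSK-343 over DMSO (adjusted p = 0.968) had SEs larger than themselves, so no difference was detectable at this depth.

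Counted over the members, TSA over GSK-343 had 3 of 10 called, where 10.7% of all genes were called. Of these 2 were higher (Sesn1 and Trp53inp1), beside 5.04% of all genes, and 1 was lower (Trp53), beside 5.68%. For TSA over DMSO, 5 of 10 were called, beside 29.2% of all genes, with 3 higher (Ccng1, Sesn1 and Btg2), beside 13.1%, and 2 lower (Trp53 and Mdm4), beside 16.1%. For GSK-343 over DMSO, 3 of 10 were called, beside 39.6% of all genes, so that the members' share was under the background, with 2 higher (Ccng1 and Btg2), beside 18.1%, and 1 lower (Mdm4), beside 21.5%. The TPM values of the groups did not overlap for 6 of 10 members in TSA over GSK-343, where this held for 44.8% of all genes, for 9 of 10 in TSA over DMSO (72.8%) and for 7 of 10 in GSK-343 over DMSO (62.5%). These sets differ from those in CPM. Btg2 overlapped between TSA and GSK-343 in TPM only. Between TSA and DMSO, Mdm2, Phlda3 and Trp53inp1 overlapped in CPM only. Between GSK-343 and DMSO, Bax overlapped in CPM only and Trp53inp1 in TPM only. The median log2 fold change of the members was 0.31, 0.52 and 0.64 in these comparisons, and that of all genes was 0.0, -0.055 and -0.042. The TSA comparisons share the TSA libraries and the DMSO comparisons share the DMSO libraries, so they are not independent.

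**Figure D3:**
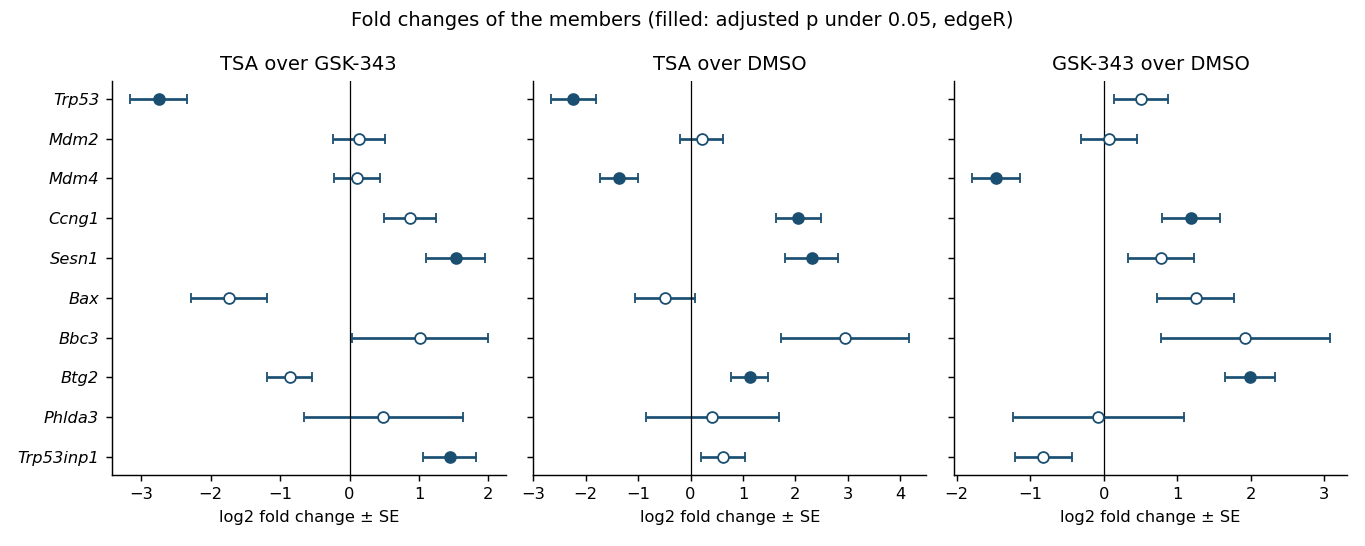
Log2 fold change ± SE of the 10 members in each of the 3 comparisons, from edgeR. Filled points have an adjusted p under 0.05: 3 members for TSA over GSK-343, 5 for TSA over DMSO and 3 for GSK-343 over DMSO.

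Other scalings moved the median of all genes, which became 0.2 for TSA over GSK-343, 0.65 for TSA over DMSO and 0.421 for GSK-343 over DMSO under total count scaling, and 0.244, 0.669 and 0.24 in TPM. Bax in TSA over DMSO was -0.49 with TMM, 0.24 under total count scaling and 0.43 on the TPM scale, none of which passed. Trp53 in GSK-343 over DMSO was 0.51 with TMM, 1.45 on the TPM scale (adjusted p = 0.00608) and -0.64 with the GC and length correction (adjusted p = 0.122), so its sign and call depended on the scale.

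**Figure D4:**
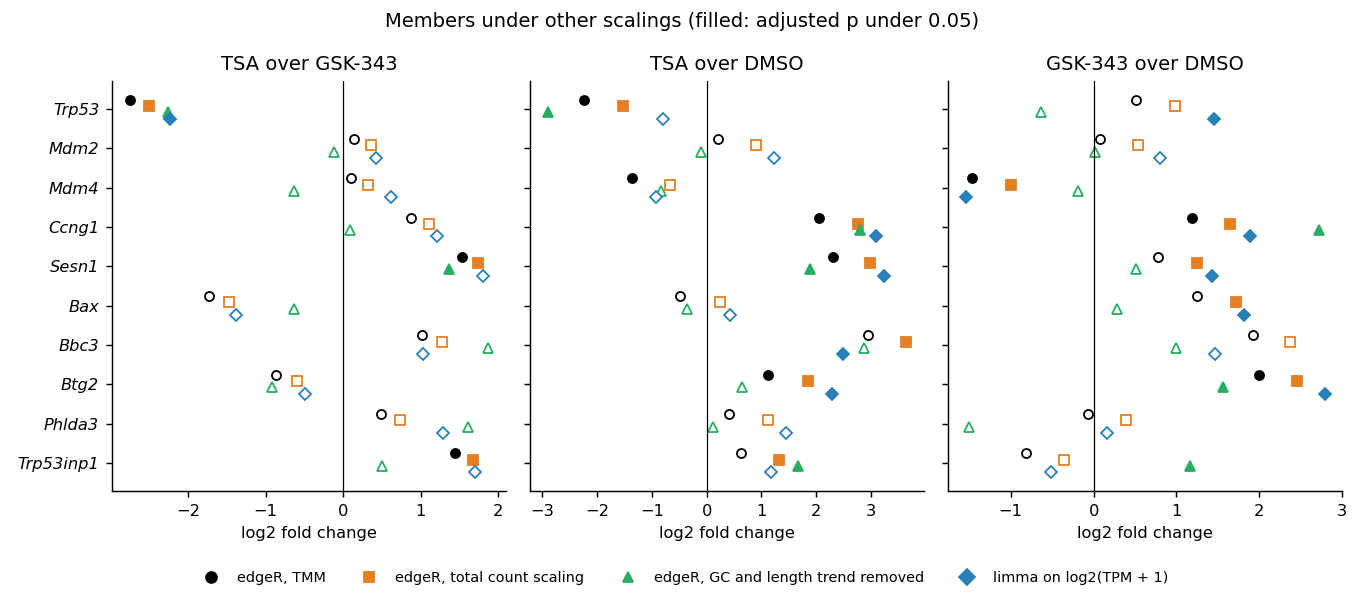
Log2 fold change of the 10 members in the 3 comparisons under TMM, total count scaling, the GC and length correction, and limma on log2(TPM + 1). Filled points have an adjusted p under 0.05; Trp53 is below 0 under each of these for both TSA comparisons, and its sign differs between them for GSK-343 over DMSO.

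Levels of the members relative to each other were read in TPM. With TSA, the levels were led by Btg2, at 563 and 338 TPM, followed by Ccng1 at 122 and 121 TPM, while Trp53 had 22 and 15.5 TPM. With GSK-343, Btg2 again led at 799, 447 and 648 TPM, and Trp53 had 84.5, 104 and 85.6 TPM. In DMSO, Mdm4 had 118 and 82.6 TPM and Btg2 83.3 and 93.1 TPM, and these overlapped. Bbc3 and Phlda3 were lowest in every group, with at most 10.9 TPM in any library.

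Cdkn1a, the cell cycle inhibitor p21 whose promoter pair is shown above, was lower with both compounds than in DMSO. It had 34.4 and 34.9 CPM under TSA, 41.1, 93.5 and 119 CPM under GSK-343, and 227 and 236 CPM under DMSO. Its groups did not overlap in CPM. In TPM, TSA (52.6 and 44.4) overlapped GSK-343 (47.25, 98.5 and 116). The fold changes relative to DMSO were -2.74 ± 0.46 under TSA (adjusted p = 0.000797) and -1.45 ± 0.385 under GSK-343 (adjusted p = 0.00798), and TSA over GSK-343 gave -1.29 ± 0.415 (adjusted p = 0.058). The direction was thus the opposite of that of the targets Ccng1 and Btg2 in the same comparisons against DMSO.

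Among 40 other p53 target genes 37 were tested. For TSA over GSK-343, 1 was higher and 1 lower (5.41% called, median 0.26): the phosphatase gene Ptp4a3 was at -2.74 ± 0.673 (adjusted p = 0.0207), and Ckap2, a spindle protein gene, was called higher, at 5.32 and 14.4 CPM under TSA, against 0.85, 0.243 and 0.925 CPM under GSK-343, about the level of 3 counts or less. For TSA over DMSO, 8 were higher and 3 lower (29.7%, median 0.81). Klhl26 rose by 3.02 ± 0.545 (adjusted p = 0.0013), Ddb2, a sensor of ultraviolet damage, by 2.69 ± 0.62 (adjusted p = 0.00587) and the sulfatase gene Sulf2 by 1.39 ± 0.386 (adjusted p = 0.0154), while Ptp4a3 fell by 2.58 ± 0.70 (adjusted p = 0.0135), with TPM that overlapped between the groups. Ephx1, an epoxide hydrolase gene, was called higher, at 12.3 and 7.92 CPM under TSA, against 0.449 and 0 CPM under DMSO. For GSK-343 over DMSO, again 8 were higher and 3 lower (29.7%, median 0.40). Klhl26 rose by 3.92 ± 0.539 (adjusted p = 9.71e-05) and Ddit4, an mTORC1 inhibitor gene, by 1.49 ± 0.411 (adjusted p = 0.00985). The mitochondrial reductase gene Fdxr rose by 3.69 ± 0.902 (adjusted p = 0.00496). Fdxr had 1.80 and 0.261 CPM under DMSO, the latter under the level of 3 counts. Rrm2b, a ribonucleotide reductase subunit gene, fell by 2.02 ± 0.546 (adjusted p = 0.00893), and the receptor gene Eda2r was called lower, at 0.567, 0 and 0.231 CPM under GSK-343, against 10.6 and 8.60 CPM under DMSO. The share called was below that of all genes for TSA over GSK-343 and for GSK-343 over DMSO and close to it for TSA over DMSO. The called targets went in both directions. Against DMSO more of them were higher than lower, while all genes had more lower calls. Of all genes, 13.1% were higher and 16.1% lower for TSA over DMSO, with a median of -0.055. For GSK-343 over DMSO these were 18.1% and 21.5%, with a median of -0.042. The cause of this tilt was not tested.

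**Figure D5:**
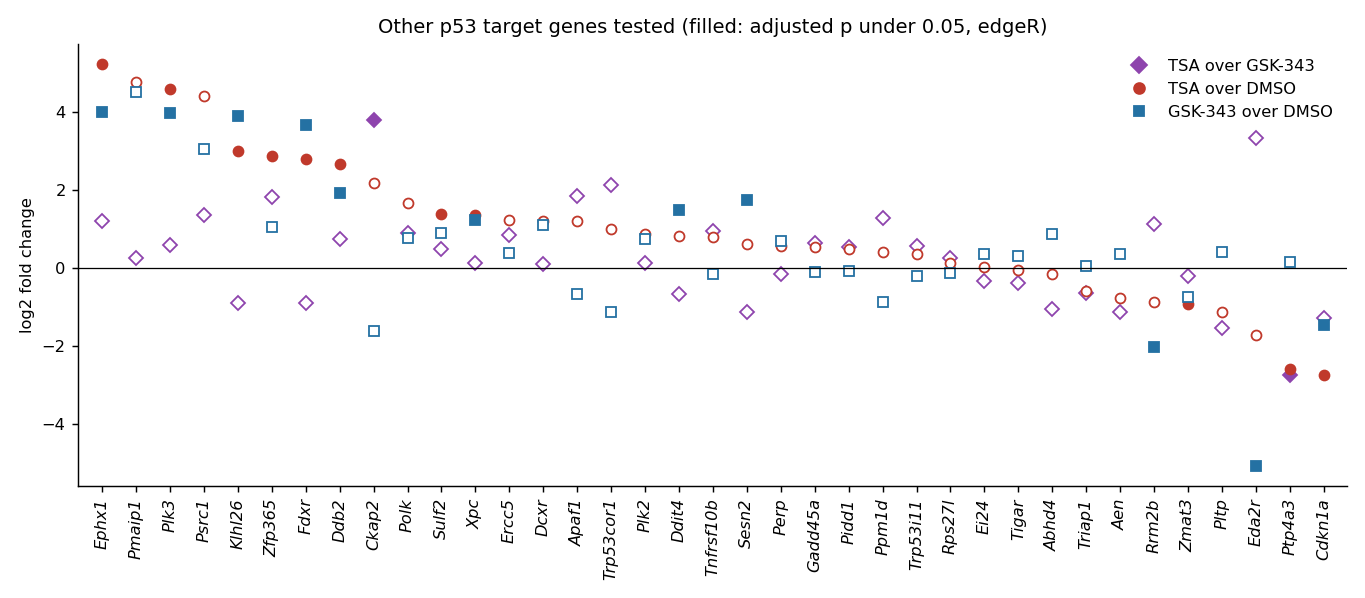
Log2 fold change of the other p53 target genes tested, 37 of 40, in the comparisons TSA over GSK-343, TSA over DMSO and GSK-343 over DMSO. Filled points have an adjusted p under 0.05 in edgeR, which 2, 11 and 11 genes reached, with points on both sides of 0 in each comparison.

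Regulators and cofactors of p53 had 24 of 26 genes tested. Of these, none was higher and 2 were lower for TSA over GSK-343 (8.33%, median -0.49), 1 and 4 for TSA over DMSO (20.8%, median -0.57), and 3 and 9 for GSK-343 over DMSO (50.0%, median -0.21). The shares of all genes called were 10.7%, 29.2% and 39.6% in the same order, and all genes too had more lower than higher calls in each comparison, with 846 lower and 752 higher, 2402 and 1957, and 3208 and 2695. The 2 that fell under TSA relative to GSK-343 were the lysine methyltransferase genes Kmt5a, at -1.29 ± 0.346 (adjusted p = 0.0293), and Setd7, at -1.46 ± 0.434 (adjusted p = 0.0438), whose proteins methylate p53. In TPM the groups overlapped for both. Crebbp, which encodes an acetyltransferase that acts on p53, fell by 2.99 ± 0.383 under TSA (adjusted p = 0.000108) and by 2.36 ± 0.323 under GSK-343 (adjusted p = 9.36e-05) relative to DMSO. Hipk2, a p53 kinase gene, fell by 2.79 ± 0.37 under TSA (adjusted p = 0.00014) and by 1.89 ± 0.312 under GSK-343 (adjusted p = 0.000405) relative to DMSO. Ep300, the paralog of Crebbp, fell by 1.76 ± 0.507 under TSA relative to DMSO (adjusted p = 0.0194), as did Setd7 by 1.61 ± 0.463 (adjusted p = 0.0182), whose TPM overlapped between these groups as well. Usp10, a deubiquitinase gene whose product stabilises p53, rose by 1.20 ± 0.391 under TSA (adjusted p = 0.032) and by 1.72 ± 0.373 under GSK-343 (adjusted p = 0.00247). With GSK-343 relative to DMSO, the acetyltransferase gene Kat5 rose by 2.77 ± 0.521 (adjusted p = 0.000985), and the kinase gene Prkdc fell by 1.85 ± 0.415 (adjusted p = 0.00303) and the ubiquitin ligase gene Cop1 by 1.38 ± 0.31 (adjusted p = 0.00311). Cdkn2a, whose product Arf inhibits Mdm2, had 0 and 0.587 CPM under TSA and no count in the other 5 libraries, and was not tested.

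BCL2 family genes, which act with Bax and Bbc3 in apoptosis, had 12 of 14 tested. TSA over GSK-343 called none in either direction (median 0.17). For TSA over DMSO, 1 was higher and 2 lower (25.0%, median -0.24), and for GSK-343 over DMSO 2 were higher and 1 lower (25.0%, median -0.36), where 29.2% and 39.6% of all genes were called. Bid, a BH3-only gene, had 29.1 and 46 CPM under TSA, 39.7, 16.3 and 18.5 CPM under GSK-343, and 0.674 and 2.35 CPM under DMSO, and rose by 4.64 ± 0.748 under TSA (adjusted p = 0.000612) and by 4.04 ± 0.713 under GSK-343 (adjusted p = 0.000632) relative to DMSO. The survival gene Bcl2 fell by 1.35 ± 0.346 under TSA (adjusted p = 0.0102) and by 0.99 ± 0.305 under GSK-343 (adjusted p = 0.0182) relative to DMSO. On the TPM scale no such fall was seen: Bcl2 averaged 32.6 ± 6.29 TPM under TSA, 34.5 ± 2.26 TPM under GSK-343 and 34.6 ± 6.17 TPM under DMSO, and the groups overlapped. Bak1, the pore-forming relative of Bax, fell by 2.21 ± 0.723 under TSA (adjusted p = 0.0323), and Bcl2l1, which encodes the survival protein Bcl-xL, rose by 2.08 ± 0.467 under GSK-343 (adjusted p = 0.00304), both relative to DMSO. The TSA libraries differed widely for Bak1, at 12.3 and 1.76 CPM, against 23.8 and 41.7 CPM under DMSO.

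Paralogs of the members, 10 of 13 tested, included genes that went the opposite way from their member. For TSA over GSK-343, 1 was higher and 1 lower (median -0.43), for TSA over DMSO 1 and 2 (median -0.59), and for GSK-343 over DMSO 2 and 4 (median -0.34). That is 2, 3 and 6 of 10 called, beside 10.7%, 29.2% and 39.6% of all genes. Sesn3, a paralog of Sesn1, rose by 1.05 ± 0.315 under TSA relative to GSK-343 (adjusted p = 0.0447) and fell by 1.58 ± 0.315 under GSK-343 relative to DMSO (adjusted p = 0.00142), while Sesn2 rose by 1.75 ± 0.499 under GSK-343 relative to DMSO (adjusted p = 0.0121). Phlda1, a paralog of Phlda3, had 33 and 14.7 CPM under TSA, 65.7, 134 and 113 CPM under GSK-343, and 517 and 419 CPM under DMSO. It fell by 2.13 ± 0.423 under TSA relative to GSK-343 (adjusted p = 0.00859), by 4.29 ± 0.481 under TSA relative to DMSO (adjusted p = 3.56e-05) and by 2.17 ± 0.378 under GSK-343 relative to DMSO (adjusted p = 0.000585). Tob1, of the antiproliferative family of Btg2, fell by 2.0 ± 0.388 under TSA (adjusted p = 0.00206) and by 1.51 ± 0.336 under GSK-343 (adjusted p = 0.00282) relative to DMSO, in the direction opposite to Btg2. Btg3 rose by 2.36 ± 0.568 under GSK-343 (adjusted p = 0.00453), and Ccng2, the paralog of Ccng1, rose by 1.34 ± 0.412 under TSA (adjusted p = 0.0245), each relative to DMSO. Trp63, the p53 relative, was called lower under GSK-343 (adjusted p = 0.0427), at 3.12, 0 and 0 CPM under GSK-343, against 21.1 and 3.65 CPM under DMSO. DMSO replicate 1 stood far above the other 4 of these libraries, and in TPM the groups overlapped.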

How the data were processed

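RNA of sorted cells went into 7 libraries through a single-cell RNA kit, per the labels. The submitters' processing notes name STAR, RSEM, DESeq2 and the build mm10; the annotation release is not given in the sources used here. The deposited expected counts are RSEM estimates per gene that share ambiguous reads, per the file headers. Deposited TPM values are scaled by effective length to a fixed sum per library. Deposited FPKM values were not used, and the deposited lengths and effective lengths, in bases, served to compare layouts. Of the 48709 genes, 48349 matched GENCODE M21 by identifier and 360 did not.

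Expected counts were rounded and tested in edgeR 4.0.16 (R 4.3.3) with TMM scaling, filterByExpr and quasi-likelihood F tests with a robust prior, in 1 fit of the 7 libraries that left 4 residual degrees of freedom. The Benjamini-Hochberg adjustment ran over all genes tested. Each SE was the size of the log2 fold change divided by the root of F. The biological coefficient of variation was 0.43. Genes with an unadjusted p under 0.05 numbered 4163 for TSA over GSK-343, 6081 for TSA over DMSO and 7240 for GSK-343 over DMSO. Replicates were not duplicates: their chi-square per degree of freedom was 15.05 to 44.21. Counts below 3 per library were treated as the floor, and such limits cover counting error only.

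The members and lists were chosen with earlier results of these data known. All 10 members are named, with up to 6 genes past the threshold per list and comparison, by smallest adjusted p, and Cdkn1a and Cdkn2a. Genes in more than 1 list count under each. Alternatives were DESeq2 size factors, total counts, other filters, only the 2 groups compared, the replicate number as a block, a spline correction for GC content and length, protein-coding nuclear genes alone, the Wald test of DESeq2 1.42.0, limma 3.58.1 on log2 TPM with a pseudocount of 1 or 0.1, and each library left out, with the filter rerun and over the same genes. A fit without the robust prior was added after the data were seen. The scripts were tested on simulated data. Python 3.11.15 with numpy 2.4.6, pandas 2.3.3 and matplotlib 3.10.9 made the tables and figures.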

Additional observations from a re-analysis of the deposited data

How the results depend on the processing

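Each comparison with DMSO is also one of read layout, groups hold 2 or 3 libraries, and low counts limit Bbc3 and Phlda3. The causes of the changes below were not tested. Over the alternatives that keep all libraries, a call was lost with the direction kept in 12 member values for TSA over GSK-343. For TSA over DMSO and GSK-343 over DMSO these were 11 and 3. Only the 3, 5 and 3 called members could lose a call. Members that stayed uncalled in the same direction count as kept below. In the same order, 119 of 138, 114 of 138 and 113 of 138 values kept their direction and side of the threshold, and 5, 6 and 10 reversed. With each library left out the shares were 112, 122 and 124 of 140, with 10, 6 and 8 reversed.

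The labels do not say whether the replicate numbers pair the libraries. Same-numbered libraries had correlations of deviations of -0.094 to 0.04. In groups of 2 the deviations mirror each other, so these values cannot decide whether the libraries were paired. With the replicate block, 1 member (Trp53) and 852 genes were called for TSA over GSK-343, where Sesn1 at 1.257 (adjusted p = 0.176) and Trp53inp1 at 1.382 (adjusted p = 0.11) no longer passed and Mdm4 was -0.108. With the block and the GC and length correction, 1 member and 561 genes were called for TSA over GSK-343, with Mdm2 at -0.14 and Mdm4 at -0.783, Mdm2 was -0.055 for TSA over DMSO, and for GSK-343 over DMSO 3740 genes were called, with Trp53 at -0.571 and Trp53inp1 at 1.159. With that correction alone, Mdm2 was -0.12 and Mdm4 -0.636 for TSA over GSK-343, Mdm2 was -0.106 for TSA over DMSO, and Trp53 was -0.635 and Trp53inp1 1.168 for GSK-343 over DMSO.

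Limma on TPM, with pseudocounts of 1 and 0.1 and, at 1, with no filter, called 1, 1 and 0 members and 1007, 619 and 5 genes for TSA over GSK-343, 7530, 6876 and 7617 genes for TSA over DMSO, and 6, 6 and 6 members for GSK-343 over DMSO. In the same order Bax was 0.434, 0.444 and 0.434 for TSA over DMSO, and Phlda3 for GSK-343 over DMSO was 0.158 at a pseudocount of 1 with and without the filter. Under total count scaling Bax was 0.241 for TSA over DMSO, and for GSK-343 over DMSO 5 members were called and Phlda3 was 0.392. For GSK-343 over DMSO, Phlda3 was 0.036 with no low-count filter, and Mdm2 was -0.045 with at least 50 counts in 2 libraries and -0.004 among protein-coding nuclear genes.

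With each library left out, over the same genes or with the filter rerun, TSA over GSK-343 called 0 to 5 members and 24 to 2111 genes, TSA over DMSO 3 to 5 members and 1766 to 5224 genes, and GSK-343 over DMSO 2 to 3 members and 3970 to 6439 genes. With the filter rerun, TSA over GSK-343 called 1 member without TSA replicate 2 and likewise without GSK-343 replicate 2 or 3, with 162, 979 and 827 genes, and 5 members without GSK-343 replicate 1. Over the same genes the lowest counts, 0 members and 24 genes, were without TSA replicate 2, and 857 genes were called without TSA replicate 1. TSA over DMSO called 3 members without TSA replicate 1 or DMSO replicate 1, and 2575, 1984, 2404 and 2894 genes without TSA replicates 1 and 2 and DMSO replicates 1 and 2. For TSA over GSK-343, TSA over DMSO and GSK-343 over DMSO, the other p53 targets called ranged over 0 to 4, 4 to 14 and 7 to 12, the regulators and cofactors over 0 to 4, 2 to 10 and 8 to 13, the BCL2 family over 0 to 3, 1 to 4 and 2 to 4, and the paralogs over 0 to 2, 2 to 4 and 5 to 6. Of the other targets, TSA over GSK-343 called 0 without TSA replicate 2 and 4 when GSK-343 replicate 1 was left out, TSA over DMSO 4 without TSA replicate 2, and GSK-343 over DMSO 7 without DMSO replicate 2. For TSA over GSK-343, the counts of 0 regulators came when TSA replicate 2 or either of GSK-343 replicates 2 and 3 was left out, that of 4 without TSA replicate 1, the 0 paralogs without TSA replicate 2 and the 3 BCL2 family genes without TSA replicate 1. For TSA over DMSO, the 2 regulators were without TSA replicate 2 or DMSO replicate 1 and the 10 without GSK-343 replicate 1, and the 1 BCL2 family gene was without TSA replicate 2 or DMSO replicate 2. For TSA over GSK-343, Mdm2 ranged over -0.206 to 0.413, Mdm4 over -0.176 to 0.323 and Phlda3 over -0.081 to 0.922. For TSA over DMSO, Mdm2 ranged over -0.114 to 0.648 and Phlda3 over -0.281 to 1.797, and for GSK-343 over DMSO, Mdm2 over -0.241 to 0.522 and Phlda3 over -0.768 to 1.32.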
